A study of Mus musculus with 2 samples.

Results

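Genes of glycolysis and of the response to low oxygen were described in E14 mouse embryonic stem cells in which Mll2 was targeted by shRNA (a short hairpin RNA that silences a transcript) and in E14 cells with a control shRNA. The set was named gene by gene and not by a cut on measured values, but it was chosen with earlier results of these data known. It lists 36 genes, and every probe set that the platform annotation pairs with 1 of them alone was taken. This gave 73 probe sets for 33 genes, of 18194 genes named in this way on the array. No probe set named Gpi1, Pfkfb1 or Eno1 alone, so the second step of glycolysis and the main enolase were not analysed here. The probe sets of Eno2 and Car9 lay on both arrays below a floor, the median of all values, which left 31 measured genes.

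Glycolysis splits glucose into pyruvate in the cytosol and yields ATP without oxygen, and lactate dehydrogenase turns the pyruvate into lactate that leaves the cell. Hypoxia-inducible factors (HIF) are pairs of an oxygen-regulated alpha subunit, Hif1a or Epas1, with Arnt; in the presence of oxygen the prolyl hydroxylases Egln1 and Egln3 mark the alpha subunits for breakdown. HIF activates most glycolytic genes, and pluripotent stem cells are known for active glycolysis.

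Each group was 1 Affymetrix 3' expression array of total RNA from infected cells of E14, an established mouse embryonic stem cell line. Both groups carried a lentiviral shRNA and, per the labels' protocols, were infected for 24 h and selected with puromycin for 5 days; they differed in the shRNA, which was directed at Mll2, a histone H3 lysine 4 methyltransferase, or was a control. The array of the first group is called the knockdown array here. With 1 array per group there is no replicate check of any difference, so the values are described without a test or p-value. In bulk RNA, fewer cells of a type and less RNA per cell cannot be told apart.

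Values are log2 signals as deposited, the ratio is Mll2 shRNA over control shRNA, and a gene is represented by its probe set with the highest mean. The floor was a log2 value of 6.02, a signal of 64.7, and values under it were raised to it. As a yardstick for single ratios, the spread at a level is the median absolute deviation, scaled to match an SD, taken over 500 genes of the most similar mean signal (the nearest genes), which holds real differences as well as noise.

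Kmt2d, for which the name Mll2 has been used, gave signals of 335 (knockdown array) and 736 (control), 2.20-fold lower, in its only probe set above the floor. Kmt2b, for which the name has also been used, had 852 and 901, a ratio of -0.08 that became 0.04 with spike-in scaling; the labels do not say which gene is meant. All 10 embryonic stem cell markers were above the floor on both arrays, with a summed signal of 95512 (knockdown array) and 101799 (control). Single markers differed in both directions, 4 lower and 3 higher past a log2 ratio of 0.32: Sall4 was at -0.58, Pou5f1 at -0.44, Utf1 at -0.41 and Tdgf1 at -0.37, and Klf4 was at 0.59, Esrrb at 0.53 and Nanog at 0.47. Of 10 fibroblast or feeder cell markers, 3 were above the floor in the knockdown array and 4 in the control, with summed signals of 838 and 830. Of 8 primitive endoderm markers, 6 were above the floor in the knockdown array and 4 in the control. Their summed signals were 2956 and 2701, of which Col4a1 alone gave 2074 and 1904. Among the 6 measured, 5 had a ratio above 0 and 1 below. Neuroectoderm markers summed to 2043 and 1735, with 4 of 6 ratios above 0 and 2 below. Sox1 among them gave 286 and 114, 2.51-fold higher. The summed signals of mesoderm markers were 534 and 514, and of endothelial or blood markers 670 and 399, of which Tek gave 493 and 225. The part of these markers in the results was not tested. A 2-fold difference was reached upwards by 173 and downwards by 116 of 11806 measured genes, and with scaling on the bacterial spike-in controls 258 of 340 were higher.

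The members were lower as a whole by a small amount. Their median log2 ratio was -0.26, and 25 of the 31 measured genes had a ratio below 0, against a median of 0.03 and 46.5% below 0 over all measured genes. With a log2 threshold of 0.32, 10 members were lower and 1 was higher, where the background was 13.4% lower and 20.1% higher. At 2-fold only Epas1 was lower and no member was higher, against a background of 0.983% lower, 1.47% higher and 2.45% in either direction. Under spike-in scaling, which moved the median of all genes to 0.14, the member median was -0.15. It lay below that of all genes by 0.29 with this and with the deposited scaling. That distance could hardly change, because spike-in scaling adds the same amount to nearly every ratio. The member median minus that of all genes was -0.25 with quantile normalization and -0.25 with loess, which shift ratios by level.

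**Figure D1:**
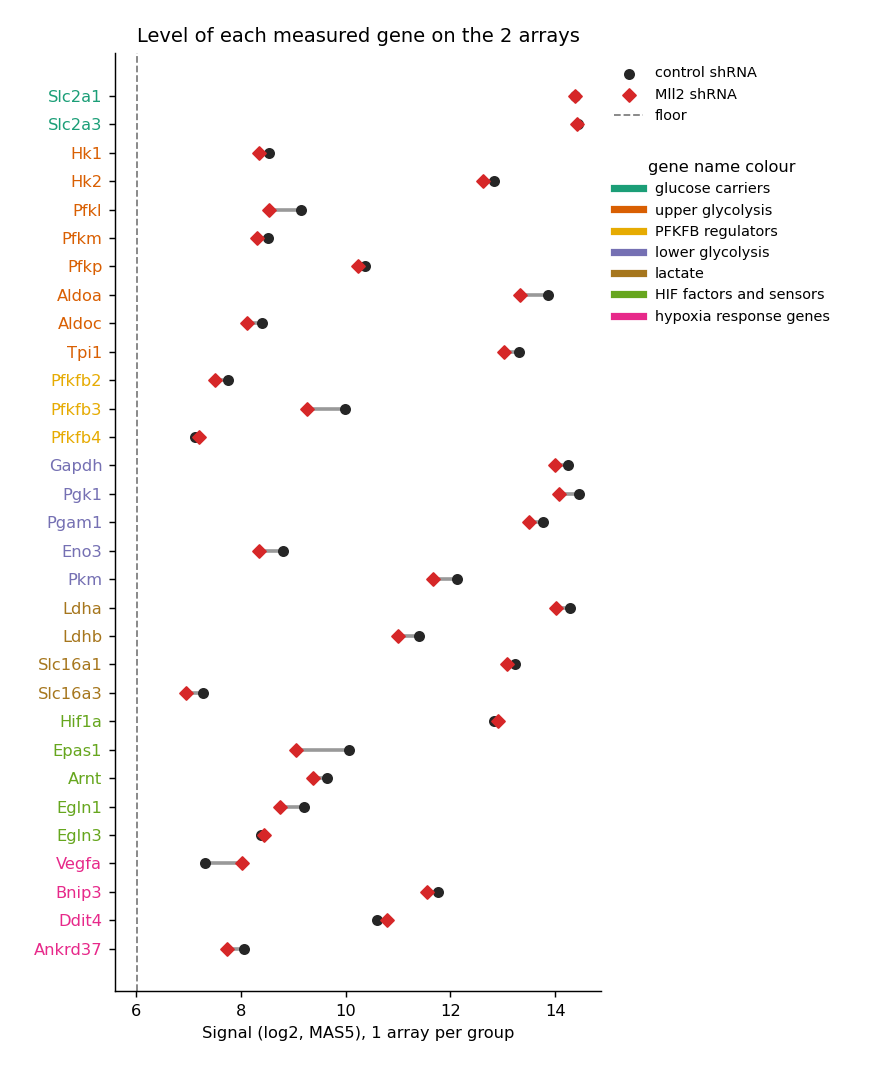
Signal (log2, MAS5) of the 31 measured genes on the control shRNA array (black circles) and the Mll2 shRNA, or knockdown, array (red diamonds), 1 array per group, 1 probe set per gene. The Mll2 shRNA point lies left of the control point in 25 genes, and the widest gaps are Epas1 (1065 to 529.5 as signals) and Pfkfb3 (1015 to 615), while Vegfa lies to the right; of these signs, those of Slc2a3 and Egln3 changed with the scaling.

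The glucose carriers did not differ between the arrays beyond the spread at their level. Slc2a1 (GLUT1), the widespread basal carrier, had signals of 21260 (knockdown array) and 21221 (control) in its brightest probe set. Its 3 probe sets averaged a log2 ratio of -0.08 ± 0.08 (SD). Slc2a3 (GLUT3), a carrier of high affinity, had 21725 and 22166, a ratio of -0.03 that became 0.08 with quantile normalization, 0.08 with loess and 0.09 with spike-in scaling. The 4 probe sets of Slc2a3 ran from -0.19 to 0.25, so that they pointed in both directions. Both ends came from dim probe sets, with signals of 231 against 264 and 179 against 150. The other bright probe set, at 19592 and 19679, had a ratio of -0.01.

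In the upper part of glycolysis, from glucose to the triose phosphates, all 8 measured genes had a ratio below 0 under every scaling tried, with a median of -0.25. Hexokinases trap glucose in the cell as glucose 6-phosphate. Hk1 had a signal of 327 against 371 in the control, and Hk2, the inducible form, 6299 against 7296 (ratio -0.21). Neither lay further from the median of the nearest genes than the spread, 0.35 for Hk1 and 0.20 for Hk2.

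Phosphofructokinase catalyses the committed step and has 3 isoforms, of liver, muscle and platelet type. Pfkl, the liver type, had signals of 373 and 564, 1.51-fold lower in the knockdown array. Of the 500 nearest genes, 20 had a lower ratio than Pfkl. Its second probe set gave 222 and 246, a ratio of -0.15, and the remaining one was above the floor in the control alone and was lower by at least 1.53-fold. Pfkm had 318 and 366 (-0.20), and Pfkp had 1203 and 1314 (-0.13). The 3 isoforms thus lay in the same direction, and Pfkl had the lowest ratio, in 1 of its 2 probe sets above this floor on both arrays.

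Aldolase splits fructose 1,6-bisphosphate. Aldoa, the form of most tissues, had signals of 10268 (knockdown array) and 14885 (control), 1.45-fold lower, and 6 of the 500 nearest genes lay below it. Its 5 probe sets averaged -0.37 ± 0.24 (SD) and ran from -0.59 to 0.02. Of these 5, 4 were lower and the fifth did not differ. All 5 carry the suffix _x_at, which marks probes that can also bind other transcripts. Aldoc had 278 and 339 (-0.29). Tpi1, the isomerase that interconverts the products of aldolase, had 8338 and 10170, and its 3 probe sets averaged -0.23 ± 0.13 (SD).

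The bifunctional PFKFB enzymes set the level of fructose 2,6-bisphosphate, the activator of phosphofructokinase. Pfkfb3, the form with the highest kinase activity, was 1.65-fold lower, with a signal of 615 (knockdown array) and 1015 (control). Its log2 ratio of -0.72 was the second lowest of the members, against a spread of 0.28 at its level, and 11 of the 500 nearest genes were lower. It was -0.61 with spike-in scaling. The other Pfkfb3 probe set was below the floor on both arrays, so the value rests on 1 probe set. Pfkfb2 had 181 and 217 (-0.26), and Pfkfb4 had 147 and 139 (0.08). Both were within the spread at their level, 0.44 and 0.50.

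The lower part of glycolysis, which yields ATP, had ratios below 0 in all 5 measured genes under every scaling tried, with a median of -0.39, or -0.27 with spike-in scaling. Of these 5, 3 were past -0.32, and 2 were with spike-in scaling. Gapdh, often used as a reference transcript, was named alone only by the 3 control probe sets of the array. At the 3' end its signal was 16399 against 19440, in the middle 12424 against 15279 and at the 5' end 15749 against 18834. The 3 ratios averaged -0.27 ± 0.03 (SD), so that the difference was alike along the transcript. Of the probe sets that name Gapdh together with other genes, the brightest gave 16440 against 19478 (-0.24), and the dim ones gave 583 against 479 and 96.3 against 81.7, in the other direction.

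Phosphoglycerate kinase, the first ATP-yielding enzyme, is encoded by Pgk1. It had a signal of 17143 (knockdown array) and 22441 (control) (-0.39), and a second probe set gave 13247 against 17272 (-0.38). The remaining probe set gave 13289 against 11897 (0.16), and the mean over the 3 was -0.20 ± 0.31 (SD). Pgam1, a mutase, had 11508 and 13843 (-0.27). Eno3, the muscle-type enolase and the only enolase measured here, had 324 and 445, 1.37-fold lower. Pkm, pyruvate kinase, the last ATP-yielding step, had 3237 and 4459, 1.38-fold lower, with 14 of the 500 nearest genes below it.

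Genes of lactate production and export had ratios below 0 in all 4 cases under every scaling tried (median -0.30, and -0.18 with spike-in scaling). Of the 4, 2 were past -0.32, and 0 were with spike-in scaling. Ldha, the subunit that favours lactate formation, had signals of 16531 and 19914, a ratio of -0.27. Ldhb, the heart-type subunit, had 2052 and 2703 in its probe set of highest mean (-0.40). That probe set was the lowest of 4, which averaged -0.20 ± 0.14 (SD) and ran from -0.40 to -0.08. Slc16a1 (MCT1), a monocarboxylate carrier, had 8698 and 9616 (-0.14), and Slc16a3 (MCT4), known for lactate export in glycolytic cells, had 124 and 155 (-0.32). The last was just inside the threshold and within the spread of 0.48 at its dim level.

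**Figure D2:**
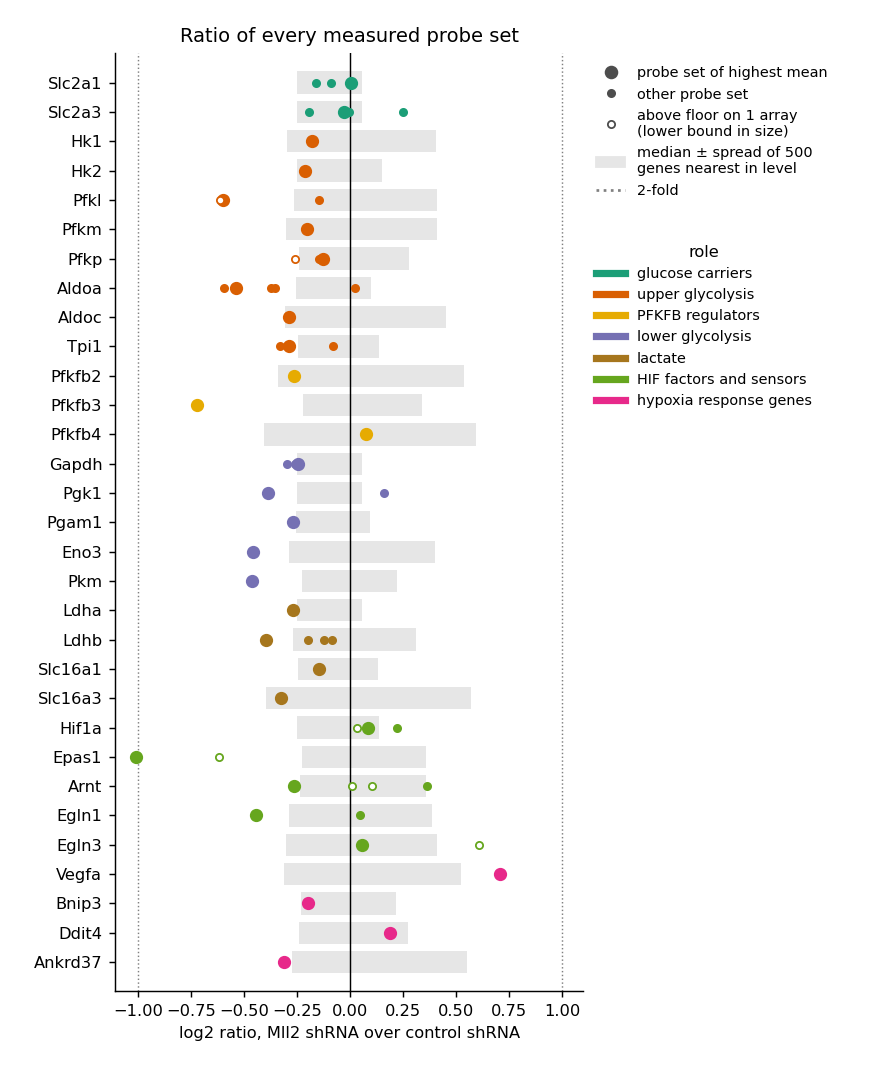
Log2 ratio (Mll2 shRNA over control shRNA) of every measured probe set of the members, by gene and role. Large points are the probe sets of highest mean, open points were above the floor on 1 array only, and grey bars show the median ± the spread of the 500 genes nearest in level. Of the 39 probe sets of carriers, glycolytic enzymes and lactate genes above the floor on both arrays 35 lie below 0. Some genes give several of the 39, such as Aldoa with 5 and Ldhb with 4, so these are not 39 separate genes. Of the 12 of HIF factors, sensors and response genes 5 lie below 0. As background, 8636 of the 18517 probe sets that name 1 gene and passed this floor in each group had a ratio below 0.

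The genes of oxygen sensing went in different directions. Epas1, which encodes HIF-2 alpha, had a signal of 530 (knockdown array) and 1065 (control), 2.01-fold lower (log2 ratio -1.01). Of the 500 nearest genes 5 lay below it, and the spread there was 0.29. The other Epas1 probe set was above the floor in the control alone, at 99.4 against 57.8, and was lower by at least 1.54-fold. The difference sat at the threshold of 2-fold: it was just short of it with median centring and was -0.89 on the log2 scale with spike-in scaling.

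Hif1a, the other alpha subunit, had signals of 7728 and 7290, a ratio of 0.08, and another probe set gave 962 and 825 (0.22). The Epas1 signal was thus lower in the Mll2 shRNA cells, while the Hif1a ratio of 0.08 was within the spread at its level, 0.19. Arnt, the shared partner, had no settled direction: 664 against 798 in one probe set (-0.26) and 541 against 420 in another (0.36).

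Egln1, the main oxygen sensor, had 432 and 587 (-0.44), but its second probe set gave 226 and 218 (0.05). Egln3, an HIF-inducible hydroxylase, had 349 and 336 (0.05), which became -0.0052 with loess. Its other probe set was above the floor in the knockdown array alone, at 98.7 against 37.1, and was higher by at least 1.53-fold. For both hydroxylases the probe sets therefore differed in size or sign by more than the spread at their level.

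Among the HIF response genes, 2 were higher and 2 lower, and Car9, a carbonic anhydrase strongly induced by HIF, lay below the floor, with signals of 24.1 and 30.7. Vegfa, the angiogenic growth factor, was the member with the highest ratio, at 261 (knockdown array) and 160 (control), 1.63-fold higher (0.71, spread at its level 0.42). It rests on 1 probe set, because the other was below the floor, and with the floor at the 70th percentile only a bound of 0.07 remained. Ddit4 (REDD1), a stress-induced inhibitor of mTORC1, had 1768 and 1553 (0.19). Bnip3, a mitophagy receptor, had 3022 and 3465 (-0.20), and Ankrd37 had 214 and 266 (-0.31), just outside the threshold of 0.32. Vegfa lay outside the spread at its level in its upward direction, and Ankrd37 lay outside it in the downward direction.

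The 2 sides were then set side by side. The carriers, enzymes and lactate genes had a median of -0.27 with 18 of 19 genes below 0. The HIF factors, sensors and response genes had a median of -0.20 with 5 of 9 below 0, and a median of 0.05 when each gene was the mean over its probe sets. Among these 9 genes the ratios ran from -1.01 to 0.71, and among the 19 from -0.60 to 0.00. The difference between the 2 sides was not tested.

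Over the whole array bright genes had lower ratios. The 1261 genes with a mean log2 value of 12 or more had a median of -0.06, and 779 of them were below 0. The 11 members in that range had a median of -0.25, with 9 below 0. Set against the 500 nearest genes, 21 of the 31 members lay below the 25th percentile of their ratios (background 24.9%), and 15 lay further from the local median than the spread, 14 of them below it and 1, Vegfa, above. Over all measured genes 32.9% lay outside that spread. Of the 12 members with at least 2 probe sets above this floor on both arrays, 5 had all ratios below 0, 1 had all above 0 and 6 had both signs. The same split was not counted over all genes, so these numbers stand without a background.

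**Figure D3:**
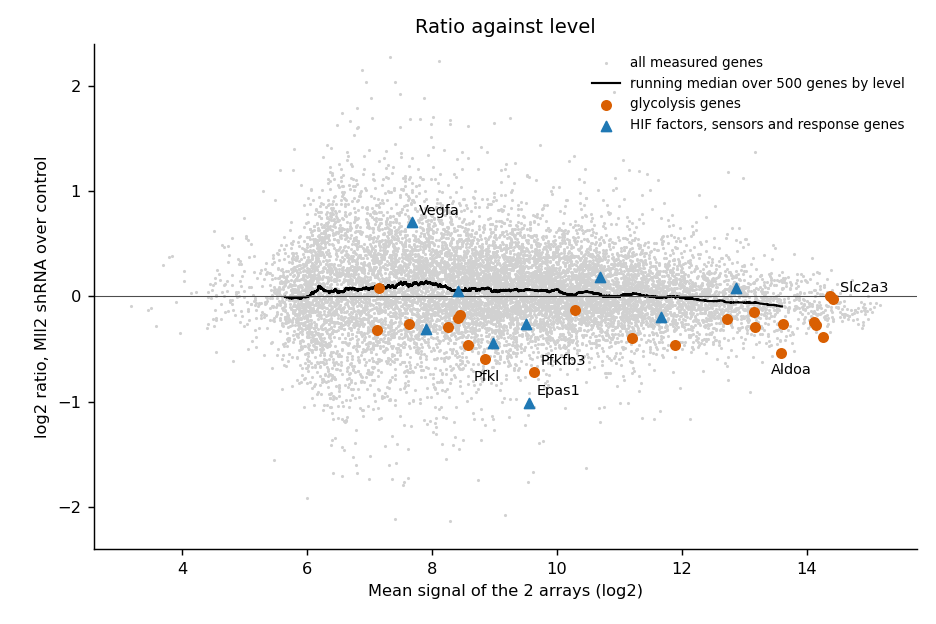
Log2 ratio against mean log2 signal for all 11806 measured genes (grey), glycolysis genes (orange circles) and HIF factors, sensors and response genes (blue triangles), with a running median over 500 genes in black. Most orange points lie below the black line at dim and bright levels alike, and Vegfa and Epas1 are the outermost blue points.

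Upstream sequences were searched for ACGTG, the core of the HIF response element, on both strands, in the 250 bases before each RefSeq start (GRCm38.p6). A CACGTG, which is also the E-box bound by MYC, counts once on each strand. Of 34 members with a sequence, 20 had the letters in at least 1 window, and 46.2% of their 52 windows did, against 16.6% of all 32841 windows. Counted by gene among measured genes with a sequence, 65.5% of 29 members had a match, against 25.4% of all 9557. The list was drawn up from genes of glycolysis and of the HIF response, so these shares are not a result of the arrays. The 19 measured members with a match had a median ratio of -0.26 with 14 below 0, and the 10 without had -0.28 with 9 below 0. Over all measured genes the medians were 0.02 with and 0.03 without a match. Shown here are 3 members with lower signals and, for comparison, Ddit4 with a higher one, each by the window with the most matches, on the gene's strand and with the matches in capitals.
Pgk1 (chrX:106186850-106187099, plus strand): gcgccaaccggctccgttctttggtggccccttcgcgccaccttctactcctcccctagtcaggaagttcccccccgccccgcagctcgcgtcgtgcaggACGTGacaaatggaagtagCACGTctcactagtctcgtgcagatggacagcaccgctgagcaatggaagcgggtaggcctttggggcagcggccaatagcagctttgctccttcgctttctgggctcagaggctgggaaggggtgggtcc
Ldha (chr7:46845554-46845803, plus strand): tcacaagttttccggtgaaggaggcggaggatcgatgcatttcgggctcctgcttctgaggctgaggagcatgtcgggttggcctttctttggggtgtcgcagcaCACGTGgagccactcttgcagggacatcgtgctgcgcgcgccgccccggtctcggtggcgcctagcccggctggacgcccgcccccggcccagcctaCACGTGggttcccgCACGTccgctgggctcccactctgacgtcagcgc
Pfkfb3 (chr2:11502091-11502340, minus strand): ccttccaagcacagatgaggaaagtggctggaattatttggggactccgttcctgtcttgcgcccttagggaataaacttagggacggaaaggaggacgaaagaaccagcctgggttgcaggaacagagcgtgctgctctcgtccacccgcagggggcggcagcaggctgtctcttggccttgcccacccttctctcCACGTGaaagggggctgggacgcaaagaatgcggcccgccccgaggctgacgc
Ddit4 (chr10:59951771-59952020, minus strand): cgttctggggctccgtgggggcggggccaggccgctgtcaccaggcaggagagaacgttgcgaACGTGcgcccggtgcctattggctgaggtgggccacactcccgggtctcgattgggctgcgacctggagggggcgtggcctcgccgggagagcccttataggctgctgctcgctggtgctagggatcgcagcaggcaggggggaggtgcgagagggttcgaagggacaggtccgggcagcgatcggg
Ldha had 5 matches, of which 4 belong to 2 E-boxes. Both matches of Pfkfb3 are the strands of 1 E-box, the 2 of Pgk1 are separate, and Ddit4 had 1. The letters describe these windows and do not show a bound site.

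Other genes of the same pathways did not all share the direction. The further glycolytic isoenzymes and carriers had 9 of 24 genes measured, 6 below and 3 above 0 (median -0.08, 0.00 with spike-in scaling), and with this summary 0 were past 0.32 in either direction. There was 1 past it with spike-in scaling (higher), 1 with the mean over probe sets and 1 without suffixed probe sets (both lower), and 4 were lower and 3 higher with the floor at the 30th percentile. The second probe set of Adpgk, an ADP-dependent glucokinase, was at -0.67, while its brightest was at -0.12. Mpc1, a subunit of the mitochondrial pyruvate carrier, was at -0.19, the insulin-regulated carrier Slc2a4 at -0.16, Slc2a8 at 0.25 and Emb, a chaperone of monocarboxylate carriers, at 0.17.

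Further HIF targets and oxygen-sensing genes had 29 of 32 measured, with 13 below and 16 above 0 and a median of 0.10. With spike-in scaling 22 were above 0 (median 0.22), and with the floor at the 70th percentile the median was -0.04. Past 0.32, 8 were higher and 2 lower, beside backgrounds of 20.1% and 13.4%. The highest was Narf at 0.59, although its second probe set gave -0.10. Adm, the vasodilator adrenomedullin, had signals of 186 and 129 (0.52), and Gbe1, the glycogen branching enzyme, 180 and 127 (0.50). Stc2 was at -0.47, with its other probe sets, each above the floor on 1 array, in both directions.

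Where pyruvate enters the mitochondrion, the largest difference was in Pdk4, a kinase that switches off pyruvate dehydrogenase. Its signal was 344 (knockdown array) and 84.0 (control), 4.09-fold higher, and the control signal was close to the floor. With the floor at the 70th percentile the bound was 0.47 on the log2 scale. The catalytic subunit genes of pyruvate dehydrogenase were lower, Pdha1 at -0.29 with -0.69 in its second probe set and Pdhb at -0.32 with -0.26. Pdp1, the phosphatase that acts against the kinases, was at 0.32, just under the threshold, with -0.11 in its second probe set. Of 10 measured genes of this list 6 were above 0. The 18 measured genes of the tricarboxylic acid cycle were evenly split, 9 above and 9 below 0, and 15 were above 0 with spike-in scaling. In that list Idh2, the mitochondrial NADP-dependent isocitrate dehydrogenase, was 1.96-fold higher (1366 against 696) with 1.11 in its second probe set, while Dlst, Idh3g and Aco1 were at 0.31, 0.20 and 0.19. The other Dlst probe sets ran from -0.29 to 0.31.

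The pentose phosphate pathway, which branches off after hexokinase, had 7 of 9 measured genes below 0, 2 of them past -0.32 (background 13.4%). The median was -0.16, and it was -0.05 with spike-in scaling, -0.24 without suffixed probe sets and -0.31 with the mean over probe sets, where 4 genes were past -0.32. With the brightest probe set the 2 were Rpia, which makes ribose 5-phosphate (382 against 542, -0.50), and Prps2 at -0.33, with -0.46 and -1.42 in its other probe sets. Tkt, transketolase, had 15577 and 18695 (-0.26), with -0.26 and -0.52 in the others, and Rpe was at -0.24.

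In the serine and one-carbon branch, which leaves glycolysis at 3-phosphoglycerate, 6 of 9 genes were above 0. The median was 0.11, but -0.07 without suffixed probe sets. Psph and Psat1, the last enzymes of serine synthesis, were 1.65-fold and 1.64-fold higher, Psat1 with 0.42 in its second probe set. Mthfd2, a mitochondrial folate enzyme, was at 0.55 with 0.78 in the second, and Gldc of the glycine cleavage system was 1.70-fold lower. In the gluconeogenesis and glycerol list, 4 of 7 measured genes were below 0 (median -0.08, but 0.04 with spike-in scaling). Gpt2, the mitochondrial alanine transaminase, was 2.41-fold higher (1003 against 417) with 0.89 and 1.01 in the other probe sets above this floor on both arrays, and Pck2 was 1.99-fold higher (289 against 146). Pck2 rests on 1 probe set, and with the floor at the 70th percentile only a bound of 0.22 remained. Gpd2, the mitochondrial glycerol 3-phosphate dehydrogenase, was at -0.52, and Fbp1 at -0.38 near the floor.

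Of 17 measured regulators of glycolytic genes, 11 were below 0 (median -0.06, but 0.06 with spike-in scaling), 4 of them past -0.32 and 2 past 0.32, beside backgrounds of 13.4% and 20.1%. Lin28a, which blocks the maturation of let-7 microRNAs, had signals of 1868 and 3481, 1.86-fold lower, and -0.65 in its second probe set. Myc, an activator of glycolytic genes, had 1106 and 1664 (-0.59), and Mlxip, a glucose-sensing partner of Mlx, 245 and 366 (-0.58). Esrrb, an orphan receptor of the naive state, was at 0.53, with another probe set at -0.22. The respiratory chain subunits lay within 0.32 of 0 in all 20 measured genes, with 14 below 0 (median -0.08, 0.03 with spike-in scaling). Ndufv1 was at -0.23, Ndufa4 at -0.20, Atp5o at -0.18 and Atp5a1 at -0.17, and the other probe sets of Ndufv1 gave 0.02 and 0.09.

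**Figure D4:**
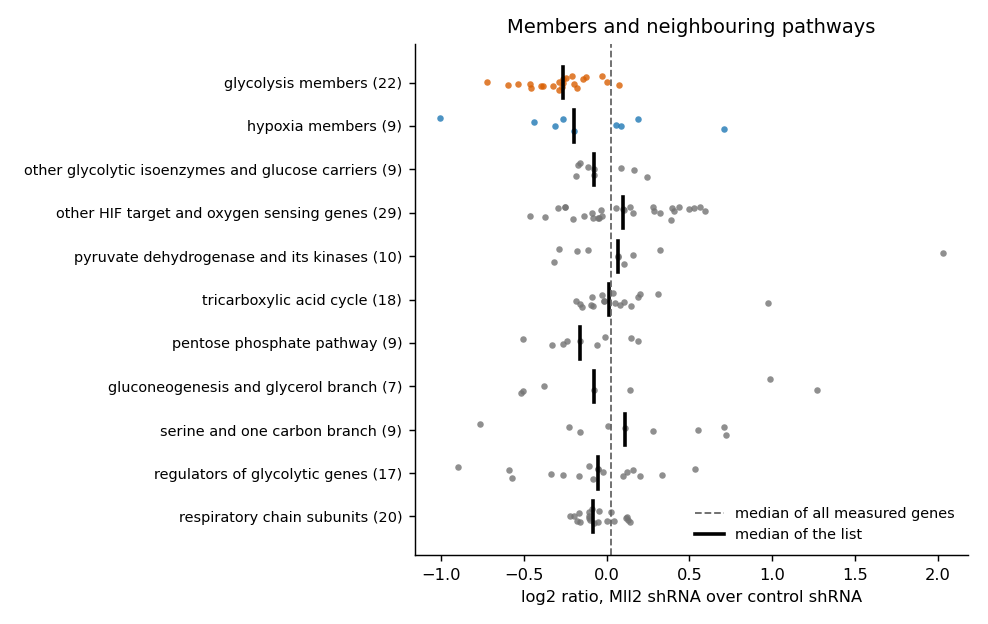
Log2 ratio (Mll2 shRNA over control shRNA) of each measured gene in the glycolysis members (22), the hypoxia members (9) and 9 other lists, with the number of genes in brackets, a black bar at each median and a dashed line at the median of all genes (0.03). The median of the glycolysis members is -0.27 and that of the pentose phosphate pathway -0.16, an order that turns with the mean over probe sets, and the single points far to the right are Pdk4, Gpt2, Pck2 and Idh2; the medians of 4 lists close to 0 change sign with spike-in scaling.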

How the data were processed

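The deposited table held log2 values for 45101 probe sets on 2 Affymetrix arrays, 1 per group. The authors made them with MAS5, per the submitters' processing notes; MAS5 summarises each array alone. Its version is not given in the sources used here. A 2% trimmed mean of the linear signals came to 500.0 on both arrays. The value was 0 for 465 probe sets with Mll2 shRNA and for 313 with control shRNA. For RNA quality, the log2 difference between the 3' and 5' control probe sets was 0.06 and 0.05 for Gapdh, and 0.77 and 0.96 for beta-actin. Depth has no counterpart here, and the number of arrays limits the precision.

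The annotation paired 34958 probe sets with 1 gene symbol, 13 of them control probe sets of the array, and 932 with several. It did not list 9211. Symbols were updated through Entrez numbers to RefSeq (GRCm38.p6) for 34754, and probe sets with several genes were not used for names. The platform names no build, so coordinates are given only for the RefSeq upstream windows. The floor was the 50th percentile of both arrays without control probe sets. A gene was measured if a probe set lay above it on at least 1 array, which held for 11806 genes, 10689 of them above it on both. A ratio with 1 array above the floor is a lower bound in size. In 4715 genes with 2 or more such probe sets, the brightest and the next differed in ratio with an SD of 0.37.

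All members were described, then Kmt2d, Kmt2b and, of each other list, the 4 genes with the largest ratio in size above the floor on both arrays. The promoters shown were chosen after the values were seen. The members and lists were chosen with earlier results of these data known. The steps were tested on simulated data. Alternatives were median centring, quantile normalization, loess, scaling on 18 spike-in probe sets, other floors, a pseudocount, the mean over probe sets, leaving out suffixed probe sets and other thresholds. Python 3.11.15, pandas 2.3.3, R 4.3.3 and limma 3.58.1 were used.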

Additional observations from a re-analysis of the deposited data

How the results depend on the processing

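The median of the members stayed below 0 under all alternatives run, from -0.27 with no floor to -0.15 with spike-in scaling, and the number of members below 0 was 24 of 31 or more wherever 31 were measured. It was 18 of 24 without suffixed probe sets, 23 of 28 with a floor at the 70th percentile, and 24 of 30 without the control probe sets, a setting added after seeing the data. The count of members at least 2-fold apart was 1, and it was 0 with median centring, spike-in scaling, a pseudocount, the mean over probe sets and a 3-fold threshold, and 4 at 1.5-fold. Over all measured genes, 289 were at least 2-fold apart, with 976 for the floor at the 30th percentile, 88 at the 70th, 3497 with no floor, 154 with a pseudocount, 1426 at 1.5-fold and 45 at 3-fold. Among single members, 4 genes moved by more than the spread at their level under some alternative: Slc2a3 to -0.19 and Arnt to 0.36 without suffixed probe sets, Pgk1 to -0.20 and Arnt to 0.05 with the mean over probe sets, and Vegfa to 0.07 with the higher floor, where its control value was raised to the floor. Among other named genes 6 moved in this way: Gpt2, Ndufv1, Pck2, Pdha1, Pdk4 and Prps2. No member past the log2 threshold of 0.32 changed sign under these alternatives. No paired analysis was possible because each group had 1 array. Of the 54 member probe sets that both arrays measured, 27 carry the suffix _s_at, _x_at or _a_at. These mark probes that can bind several transcripts, of the same gene or of other genes, and were not separated here.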

Other observations

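Transcripts often used as references were looked up after the values were seen. Actb had 5 measured probe sets with a mean log2 ratio of -0.19 ± 0.14 (SD), and Ywhaz had 7 with -0.10 ± 0.12 (SD). Rplp0 was at -0.14, Sdha at -0.09, Tbp at -0.06 and B2m at -0.01, its second probe set at 0.46. Gapdh, at -0.27 ± 0.03 (SD over 3 control probe sets), thus had the lowest mean over probe sets among the genes above the floor on both arrays. By the brightest probe set, the 3' control probe set in both genes, Actb was lower, at -0.26 against -0.25 for Gapdh. The Actb probe sets ran from -0.39 to -0.07. The 3' minus 5' difference of Actb was 0.77 on the knockdown array and 0.96 on the control array, so its ratio depends on the position of the probe set. Hprt was above the floor in the control array alone and was lower by at least 0.57 on the log2 scale. A ratio taken against Gapdh would be higher by 0.27 than one taken from the deposited scaling.

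The probe sets of Hk1 include one of bright signal that the annotation also assigns to Rpl17 and its pseudogenes, and it was left out. Its signal was 19789 with Mll2 shRNA and 24900 with control shRNA (-0.33). Of the 2 probe sets that name Hk1 alone, one had 327 and 371, and the other was below the floor on both arrays.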
